A study of Mus musculus with 80 samples.

Results

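The livers of mice without a working Adamts12 gene were examined 24 h after a single dose of carbon tetrachloride (CCl4), a solvent that injures the liver. The 10 livers were chosen by their sample titles, 5 from Adamts12-/- mice given CCl4 and 5 from Adamts12-/- mice given vehicle, out of 80 livers in the series. The series measured messenger RNA by sequencing in 16 groups of 5 female C57BL/6J mice, of Adamts12-/- or wild-type genotype, killed 4 h, 12 h, 24 h or 7 days after the injection. Treated and vehicle mice were aged 8 weeks. The treated mice had received CCl4 at 0.3 ml per kg of body weight into the abdomen, diluted to 3% by volume in olive oil, and the vehicle mice had received olive oil. All mice of both groups carried the same knockout and had been injected, and no uninjected liver entered the comparison. The knockout mice came from 1 line made for an earlier study, and it is not stated which part of the gene was removed. Each mouse gave 1 liver and 1 library, so the mouse is the unit of the tests below.

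ADAMTS12 is a secreted metalloproteinase that acts in the extracellular matrix. CCl4 is itself of low reactivity, and it becomes toxic when cytochrome P450 enzymes, above all CYP2E1, turn it into radicals. CYP2E1 is most abundant in the hepatocytes around the central vein, so a moderate dose kills that zone, after which macrophages clear the dead cells, stellate cells lay down matrix and the remaining hepatocytes divide. The comparison asked which genes had moved in the knockout liver at 24 h, a time at which dead cells, incoming macrophages and growing hepatocytes can all be present.

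The values are the authors' normalised counts, which allow a gene to be compared between livers but not 1 gene with another. Between 23064560 and 40193820 reads lay behind each CCl4 liver and between 24703575 and 43354824 behind each vehicle liver, against 18648557 to 64487370 in the series as a whole. Changes are differences between group means of log2(normalised count + 1), CCl4 minus vehicle, given ± SE with p-values from limma adjusted over 14557 genes, and a gene was called at an adjusted p under 0.05. Values for single livers follow the replicate numbers 1 to 5 of the labels. Means are given ± SD with n = 5 livers.

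The CCl4 livers varied more than the vehicle livers. The median SD of a gene on the log2 scale was 0.434 in CCl4 livers and 0.245 in vehicle livers, and 74.4% of genes had the larger SD after CCl4. CCl4 livers 2 and 4 stood nearest to the vehicle livers. Their mean correlation with the vehicle livers over all genes was 0.958 and 0.946, against 0.944 and 0.947 with the other CCl4 livers, whereas CCl4 livers 1, 3 and 5 correlated at 0.914, 0.921 and 0.870 with the vehicle livers and at 0.958, 0.959 and 0.927 with their own group. The genes called below had moved in the called direction by a median log2 change of 0.962, 0.495, 0.946, 0.642 and 1.24 in CCl4 livers 1 to 5. Livers 2 and 4 still showed the loss of central-vein genes and the gain of Mmp12 described below, and counts of gene groups are given with and without them.

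The transcript of the targeted gene was scarce in every knockout liver. Adamts12 (ENSMUSG00000047497, chr15:11064790-11349231, plus strand) measured 14.4, 12.0, 8.18, 13.9 and 8.84 in CCl4 livers, from 15, 10, 12, 13 and 11 reads. It measured 5.5, 1.59, 10.3, 1.27 and 9.03 in vehicle livers, from 5, 1, 8, 1 and 10 reads. The ranges overlapped, with vehicle livers 2 and 4 lowest. The remaining signal was higher after CCl4 by a log2 change of 1.19 ± 0.43 (adjusted p = 0.0208, and p = 0.0476 in an exact two-sided permutation test, n = 5 against 5, which allows no p below 0.00794). Leaving out 1 liver at a time gave log2 changes of 0.884 to 1.46, and the exact permutation p was 0.0952 in 6 of those 10 omissions. The limma call was lost without vehicle liver 2 or 4, with a pseudocount of 8 and without CCl4 livers 2 and 4 (adjusted p up to 0.106). Knockout CCl4 livers averaged 11.5 ± 2.84, against 58.1 ± 18.4 in wild-type CCl4 livers, a log2 difference of -2.21 (exact permutation p = 0.00794, n = 5 against 5). Knockout vehicle livers averaged 5.53 ± 4.13, against 16.9 ± 5.69 in wild-type vehicle livers (log2 difference -1.68, exact permutation p = 0.0159, n = 5 against 5). The rise after CCl4 in knockout and wild-type livers did not differ detectably (log2 difference -0.52 ± 0.61, adjusted p = 0.929).

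CCl4 moved a large share of the transcriptome in knockout livers. Of 14557 genes tested, 6452 were called (44.3%), 3079 of them higher (21.2%) and 3373 lower (23.2%) after CCl4. A change of at least 2-fold was met by 1188 genes that rose and 1521 that fell, and a change of at least 16-fold by 41 and 13. For 3293 genes (22.6%) the 5 CCl4 livers and the 5 vehicle livers did not overlap. The median log2 change over all genes was 0.0174. Without CCl4 livers 2 and 4, 7483 genes were called, 3582 higher and 3901 lower, and 5847 of the calls above were among them. A fit of the 10 livers alone, without the spread of the other groups, called 4266.

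**Figure D1:**
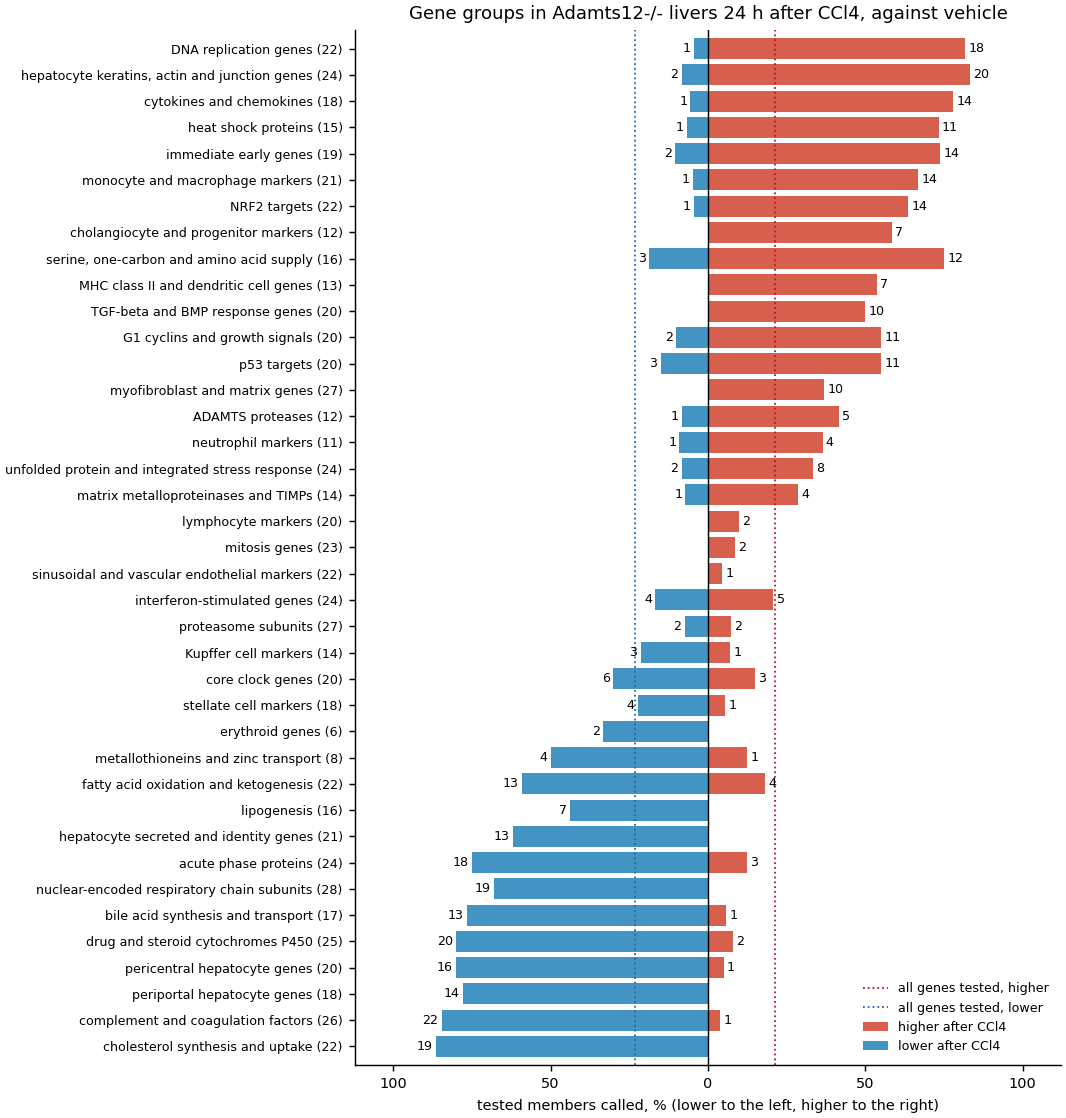
Share of the tested members of each gene group that was higher (bars to the right) or lower (bars to the left) in Adamts12-/- livers 24 h after CCl4 than after vehicle, in percent, with the number of genes at each bar and the number tested in parentheses. Dotted lines mark the shares over all 14557 genes, 21.2% higher and 23.2% lower. Groups of hepatocyte metabolism lie to the left and those of DNA replication, cell structure and cytokines to the right.

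Genes of the central-vein zone fell. Of 20 pericentral genes tested, 16 fell and 1 rose, with a median log2 change of -1.11, and 14 fell and 1 rose without livers 2 and 4. Glul, which makes glutamine synthetase and marks the hepatocytes nearest the central vein, measured 2652, 2695, 3089, 2044 and 2662 in CCl4 livers. It measured 36688, 32756, 45017, 49162 and 56719 in vehicle livers. The 5 CCl4 livers were close together and far below every vehicle liver (log2 change -4.05 ± 0.28, adjusted p = 5.74e-18). Slc1a2, a glutamate transporter of the same cells, measured 348, 43.3, 314, 40.5 and 249.99 in CCl4 livers, against 6076, 5257, 7676, 7609.6 and 8579.8 in vehicle livers. Its lowest values were those of CCl4 livers 2 and 4, and it had the smallest adjusted p of all genes tested (log2 change -5.65 ± 0.34, adjusted p = 3.15e-20). Cyp2e1, the enzyme that activates CCl4, measured 15311, 31344, 29555, 22805 and 28236 in CCl4 livers, against 245988, 308904, 348444, 282687 and 352424 in vehicle livers, with no overlap (log2 change -3.63 ± 0.24, adjusted p = 1.49e-18). Among the others, Oat, an ornithine aminotransferase, averaged 6290.4 ± 1303 in CCl4 livers and 23379.8 ± 4673 in vehicle livers, and Rhbg, an ammonium transporter, averaged 12.2 ± 5.73 in CCl4 livers and 85.0 ± 16.4 in vehicle livers. Among targets of Wnt signalling in the group, Lgr5 and Tbx3 were called lower, with ranges that overlapped, and Axin2, Rnf43 and Znrf3 were not called. In bulk tissue, a loss of cells of a type and a lower amount of RNA per cell cannot be told apart.

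Cyp2a5 was the member of that group that rose. It measured 44185, 19921, 71323, 41319 and 29367 in CCl4 livers, against 4144, 5789, 6156, 8721 and 7839 in vehicle livers, with no overlap and with CCl4 liver 3 highest (log2 change 2.58 ± 0.42, adjusted p = 9.13e-07). The knockout vehicle livers of 24 h were low for this gene, at 6529.6 ± 1795, against 52388 ± 13594 in vehicle livers of 4 h and 17794 ± 9529.7 in those of 7 days. Cyp2a4, a near copy with which it can share reads, averaged 25032 ± 22604 in CCl4 livers and 1724 ± 609.7 in vehicle livers (log2 change 3.34 ± 0.64, adjusted p = 2.45e-05), so the split between the pair is uncertain. The P450 enzymes of drug and steroid metabolism otherwise fell, 20 of 25 tested, with Cyp2a5 and Cyp2b10 the 2 that rose and a median of -1.74. Without livers 2 and 4, 23 fell. Cyp2c38 averaged 370.4 ± 90.7 in CCl4 livers and 3418 ± 863 in vehicle livers, and Cyp2c54 averaged 2002 ± 655 in CCl4 livers and 11923 ± 2082 in vehicle livers. Neither overlapped between the groups.

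Genes of the portal zone and of the whole hepatocyte fell too. Of 18 periportal genes 14 fell and none rose (median -1.04). Otc, the urea-cycle enzyme ornithine transcarbamylase, measured 2192, 5825, 3708, 3578 and 2257 in CCl4 livers, against 13502, 11899, 11022, 10837 and 11212 in vehicle livers, with livers 1 and 5 lowest (log2 change -1.83 ± 0.22, adjusted p = 1.44e-09). Of 21 genes for secreted proteins and transcription factors of hepatocytes 13 fell and none rose (median -0.663). Hnf4a, the nuclear receptor that maintains hepatocyte identity, averaged 15718 ± 1950.4 in CCl4 livers and 31787 ± 4668 in vehicle livers (log2 change -1.01 ± 0.14, adjusted p = 1.42e-08). Apoa1, the main protein of high-density lipoprotein, averaged 99135 ± 19924 in CCl4 livers and 331572 ± 40979 in vehicle livers (log2 change -1.76 ± 0.21, adjusted p = 1.13e-09), whereas Alb, encoding albumin, was not called. Normalising by quantiles in place of the authors' size factors called 7 periportal genes lower, and 9 genes of the secreted and transcription factor group lower and 2 higher. Without livers 2 and 4 the falls numbered 15 and 14.

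Bile acid and cholesterol genes fell almost as a block. Of 17 bile acid genes 13 fell and 1 rose (median -1.54), the same numbers as without livers 2 and 4. Cyp8b1, the sterol hydroxylase that makes cholic acid, measured 237, 1947, 1094, 1726 and 53.1 in CCl4 livers, against 5238, 11129, 10238, 15789 and 15794 in vehicle livers. Livers 5 and 1 were lowest and livers 2 and 4 highest among the CCl4 livers, and the groups did not overlap (log2 change -4.32 ± 0.61, adjusted p = 6.15e-08). Slc10a1, the transporter that takes up bile acids from blood, averaged 5559.8 ± 3068 in CCl4 livers and 20988 ± 1780.2 in vehicle livers. The member that rose was Abcc4, which pumps bile acids back to the blood side. It measured 3072, 518, 6286, 1151 and 654 in CCl4 livers, against 71.4, 55.7, 115, 97.5 and 85.8 in vehicle livers, with no overlap and with liver 3 highest (log2 change 4.16 ± 0.44, adjusted p = 2.07e-11). Of 22 genes of cholesterol synthesis and uptake 19 fell and none rose (median -1.38), and 21 fell without livers 2 and 4. Mvk, mevalonate kinase, measured 382, 1026, 580.1, 608 and 143 in CCl4 livers, against 2172, 1364, 1702, 2711 and 2567 in vehicle livers (log2 change -2.15 ± 0.33, adjusted p = 3.33e-07). Liver 5 was lowest, and the groups did not overlap.

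Fat metabolism showed falls of oxidation genes beside a rise of lipid droplet protein. Of 22 genes of fatty acid oxidation and ketone synthesis 13 fell and 4 rose (median -0.764), 14 and 4 without livers 2 and 4, and quantile normalisation called 6 lower and 4 higher. Cpt1a, which admits fatty acids to mitochondria, measured 6149.7, 7023, 6084, 7691 and 4453 in CCl4 livers, against 10949.7, 15088, 17749, 16036 and 21818 in vehicle livers, with no overlap (log2 change -1.37 ± 0.21, adjusted p = 2.52e-07). Plin2, which coats lipid droplets, measured 34939, 17952, 43677, 17741 and 68507 in CCl4 livers, against 11338, 11633, 14719, 13004 and 15967 in vehicle livers. It was highest in liver 5, and even livers 2 and 4 lay above all vehicle livers (log2 change 1.27 ± 0.24, adjusted p = 2.21e-05). Of 16 lipogenesis genes 7 fell and none rose (43.8% called, against 44.3% of all genes), and 8 fell without livers 2 and 4. Fasn, Acaca, Scd1 and Srebf1 were among the 9 not called. Of 28 nuclear-encoded subunits of the respiratory chain 19 fell and none rose (median -0.438), and 16 fell without livers 2 and 4. Sdha, a subunit of succinate dehydrogenase, measured 8387, 11571, 7603, 11097 and 4701 in CCl4 livers, against 12510.3, 14702, 15006, 14640.4 and 17519.9 in vehicle livers, with liver 5 lowest (log2 change -0.84 ± 0.19, adjusted p = 0.000273). That call was lost under quantile normalisation, under which 7 genes of the group fell and 1 rose.

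The liver's secreted defence proteins were lower. Of 26 complement and coagulation genes 22 fell and 1 rose (median -1.03), 21 and 1 without livers 2 and 4. F7, coagulation factor VII, averaged 1607 ± 439 in CCl4 livers and 5272 ± 676 in vehicle livers (log2 change -1.75 ± 0.15, adjusted p = 1.5e-14). C3, the central complement component, measured 751603, 535019, 550351, 395094 and 432268 in CCl4 livers, against 1008432, 1137532, 1075437, 1009892 and 1280352 in vehicle livers, with no overlap (log2 change -1.08 ± 0.24, adjusted p = 0.000202, a call lost under quantile normalisation). The knockout vehicle livers of 24 h were high in C3, at 1102329 ± 112933.5, against 486719.5 ± 115474 at 4 h and 498008 ± 110175.5 at 7 days. The CCl4 livers of 24 h averaged 532867 ± 138976 for C3, which is not below the vehicle means of those other times. Of 24 acute phase genes 18 fell and 3 rose (median -1.33). That count depended on few livers and on the scaling, with 9 falls without livers 2 and 4 and 6 under quantile normalisation. Saa1, serum amyloid A, measured 324402, 77999.7, 261049, 4061 and 233777 in CCl4 livers, against 825998, 564024, 580154, 427413 and 419057 in vehicle livers. Liver 4 was far below the rest, and the call (log2 change -2.58 ± 0.87, adjusted p = 0.0127) was lost without it. Saa1 and Saa2 are near copies that can share reads. The knockout vehicle livers of 24 h were high in Saa1, at 563329 ± 164747, against 128844 ± 63512 in vehicle livers of 4 h and 5545 ± 5619 in those of 7 days. Cd14, a co-receptor for bacterial lipopolysaccharide, was 1 of the 3 that rose, and it averaged 3496 ± 2677 in CCl4 livers and 100.2 ± 35.6 in vehicle livers (log2 change 4.80 ± 0.47, adjusted p = 3.2e-12).

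**Figure D2:**
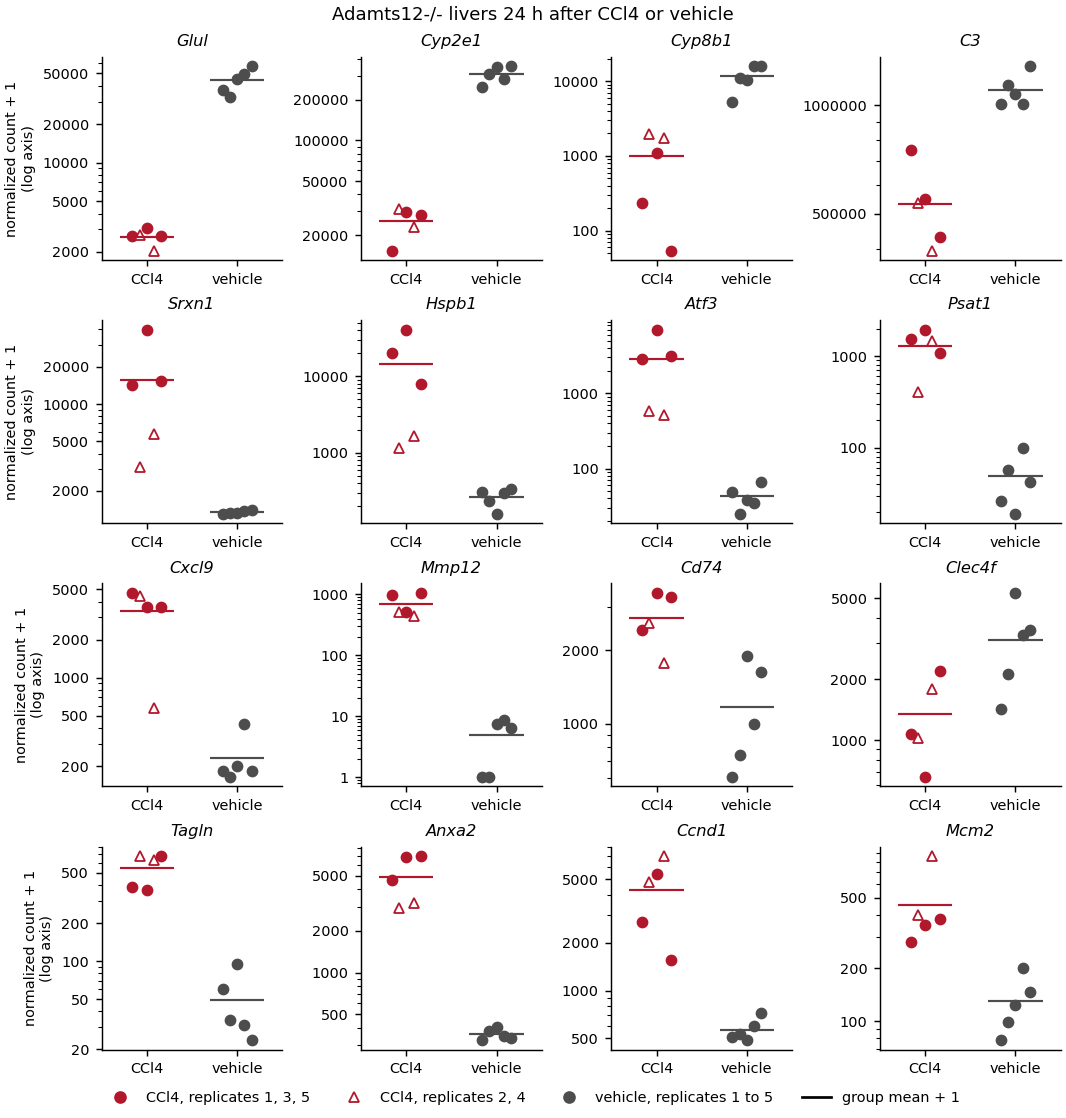
Normalised count + 1 (log axes) of 16 genes in each Adamts12-/- liver of 24 h, CCl4 at the left and vehicle at the right of each panel, with open triangles for CCl4 livers 2 and 4 and horizontal lines at the group mean. Glul, Cyp2e1 and Mmp12 separated all 5 CCl4 livers from all 5 vehicle livers, while Clec4f and Cd74 overlapped between the groups, and livers 2 and 4 were the lowest CCl4 livers for Hspb1, Srxn1 and Atf3.

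Single genes of stress responses were among the largest rises. Atf3, a transcription factor of the integrated stress response, measured 2897, 584, 7065, 511 and 3113 in CCl4 livers, against 48.4, 23.9, 37.2, 34.2 and 65.0 in vehicle livers (log2 change 5.48 ± 0.60, adjusted p = 6.84e-11). Nupr1, a stress-induced nuclear protein that ATF4 controls, measured 8816, 439.8, 21763, 909 and 3753 in CCl4 livers, against 60.4, 54.1, 48.7, 91.2 and 38.8 in vehicle livers (log2 change 5.76 ± 0.58, adjusted p = 7.17e-12). For both genes, livers 2 and 4 were the lowest CCl4 livers and still above every vehicle liver. Ddit3, encoding the factor CHOP, averaged 1524 ± 1924 in CCl4 livers and 205 ± 47.8 in vehicle livers (log2 change 2.15 ± 0.39, adjusted p = 8.56e-06). The group as a whole moved less. Of 24 genes of the unfolded protein and integrated stress responses 8 rose, Atf3, Nupr1 and Ddit3 included, and 2 fell (median 0.315). The share called was 41.7%, against 44.3% of all genes, and the share that rose was 33.3%, against 21.2%. Hspa5, the main chaperone of the endoplasmic reticulum, measured 67651, 29184, 92561, 62834 and 39851 in CCl4 livers, against 45980.4, 24892, 33276, 27377 and 40452 in vehicle livers, with overlapping ranges and liver 3 highest. It was called higher (log2 change 0.69 ± 0.27, adjusted p = 0.0344), a call lost in 8 of 18 alternative fits. The chaperones Hsp90b1, Calr and Pdia4 of the same compartment were not called, and Herpud1, which helps degrade unfolded proteins, fell and averaged 4687 ± 1778 in CCl4 livers and 10683 ± 2291 in vehicle livers. The count of rises was 11 without livers 2 and 4 and 15 under quantile normalisation.

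The starts of Atf3 and Nupr1 are shown because both hold the CHOP and ATF4 motif TGATGNAA, searched on both strands from 250 bases before to 50 bases after the annotated start. The sequences are from RefSeq (GRCm38.p6), written in the direction of the gene, with the match in capitals, here in its reverse complement. The Atf3 window is chr1:191183284-191183583 on the minus strand, the Nupr1 window chr7:126625421-126625720 on the minus strand, and in both the match begins at -110 from the start.
Atf3: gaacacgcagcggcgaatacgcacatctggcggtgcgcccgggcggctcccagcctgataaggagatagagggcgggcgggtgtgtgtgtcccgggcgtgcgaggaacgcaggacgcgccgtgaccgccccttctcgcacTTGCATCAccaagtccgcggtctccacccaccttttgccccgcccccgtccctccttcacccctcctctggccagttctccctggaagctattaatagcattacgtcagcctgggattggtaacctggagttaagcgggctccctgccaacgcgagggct
Nupr1: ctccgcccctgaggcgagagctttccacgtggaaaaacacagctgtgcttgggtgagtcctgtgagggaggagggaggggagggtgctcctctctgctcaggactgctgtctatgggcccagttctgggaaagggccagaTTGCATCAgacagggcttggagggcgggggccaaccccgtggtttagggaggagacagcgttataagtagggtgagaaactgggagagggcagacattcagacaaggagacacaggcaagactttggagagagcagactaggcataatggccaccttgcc
The motif was found in 7 of the 23 windows of this gene group (30.4%) and in 2.45% of all 13941 windows of genes tested, and the 7 include Fgf21, which was not called at 24 h, and Herpud1, which fell.

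Serine and amino acid supply genes, many of which ATF4 controls, rose. Of 16 genes, 12 rose and 3 fell (median 2.0), 13 and 3 without livers 2 and 4. Psat1, an enzyme of serine synthesis, measured 1526, 407, 1951, 1443 and 1086 in CCl4 livers, against 25.3, 55.7, 17.9, 97.5 and 41.5 in vehicle livers, with liver 2 lowest of the CCl4 livers and no overlap (log2 change 4.79 ± 0.50, adjusted p = 1.21e-11). Phgdh, which catalyses the first step of that pathway, averaged 521 ± 579 in CCl4 livers and 7.7 ± 7.41 in vehicle livers (log2 change 5.22 ± 0.72, adjusted p = 2.97e-08). The 3 members that fell were Shmt2, Cth and Cbs. Shmt2 belongs to mitochondrial one-carbon metabolism, of which Mthfd2, Mthfd1l and Aldh1l2 rose, and Cth and Cbs belong to cysteine synthesis.

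Chaperones of the cytosol rose. Of 15 heat shock genes 11 rose and 1, Hspb8, fell (median 1.01), the same numbers as without livers 2 and 4. Hspb1, a small chaperone that binds misfolded proteins and actin, measured 20468, 1140.3, 41008, 1674 and 8045.4 in CCl4 livers, against 302, 232, 158, 296 and 339 in vehicle livers. Livers 1 and 3 were highest and livers 2 and 4 lowest of the CCl4 livers, and all 5 lay above the vehicle livers (log2 change 4.69 ± 0.74, adjusted p = 5.2e-07). Hsp90aa1, the inducible form of HSP90, averaged 15365 ± 5419 in CCl4 livers and 4184 ± 1056 in vehicle livers (log2 change 1.82 ± 0.28, adjusted p = 2.4e-07). The Hspb1 start (chr5:135887669-135887968, plus strand, RefSeq GRCm38.p6) is shown for its 2 matches, in capitals at -117 and -97, to the heat shock element GAANNTTC, which was searched with TTCNNGAA on both strands.
Hspb1: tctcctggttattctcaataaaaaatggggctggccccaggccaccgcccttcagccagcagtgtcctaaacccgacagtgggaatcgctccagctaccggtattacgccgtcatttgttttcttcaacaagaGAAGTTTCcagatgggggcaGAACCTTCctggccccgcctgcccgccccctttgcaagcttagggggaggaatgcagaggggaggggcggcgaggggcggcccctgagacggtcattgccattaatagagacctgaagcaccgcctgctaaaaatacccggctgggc
Matches lay in 10 of the 16 windows of heat shock genes (62.5%) and in 12% of all windows, and Hspb8 was among the genes that held them.

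Antioxidant genes rose. Of 22 targets of NRF2, the factor that answers oxidants, 14 rose and 1 fell (median 0.844), with the same numbers without livers 2 and 4. Srxn1, which restores oxidised peroxiredoxins, measured 14179, 3092, 39819, 5734 and 15256 in CCl4 livers, against 1305, 1322, 1319.8, 1387 and 1410.3 in vehicle livers. The vehicle livers were nearly alike, and every CCl4 liver lay above them, with livers 2 and 4 lowest (log2 change 3.01 ± 0.35, adjusted p = 2.56e-10). Gsta1, a glutathione transferase, measured 1566, 262, 1983, 159.99 and 778 in CCl4 livers, whereas the vehicle livers held 2 reads in all and 3 of them none. The ratio of its means was 1765, with a counting interval of 489 to 14578 (95%, from the vehicle reads alone), and it can share reads with its near copy Gsta2. That ratio rests on a low vehicle level at 24 h, 0.538 ± 0.757, against 38.0 ± 24.6 in knockout vehicle livers of 4 h and 98.2 ± 70.9 in those of 7 days. Nqo1, a widely used NRF2 target, was not called, and Gclm, which with Gclc forms the enzyme for glutathione synthesis, fell while Gclc rose. The motif TGACNNNGC was found in 37.5% of windows of the group and in 14.1% of all windows.

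Early response and p53 genes were also raised. Of 19 immediate early genes 14 rose and 2 fell (median 2.25), 16 and 1 without livers 2 and 4. Myc, a transcription factor that drives growth, measured 1439.7, 248, 3230.00, 435 and 2069 in CCl4 livers, against 49.5, 116, 66.6, 110.2 and 70.4 in vehicle livers, with no overlap (log2 change 3.67 ± 0.47, adjusted p = 3.65e-09). Of 20 p53 targets 11 rose and 3 fell (median 0.828), the same numbers as without livers 2 and 4, and Trp53 itself, which encodes p53, averaged 1104 ± 219 in CCl4 livers and 541 ± 43.5 in vehicle livers (log2 change 1.01 ± 0.12, adjusted p = 4.35e-10). Cdkn1a, the p53 target that encodes the cell-cycle inhibitor p21, was not called (adjusted p = 0.363). Of 8 genes of metallothioneins and zinc transport 4 fell and 1 rose, 2 and 1 without livers 2 and 4. Mt2, a zinc- and metal-binding protein, measured 23304, 5984, 24643, 2618 and 44355 in CCl4 livers, against 107858, 25655, 35449.6, 42093 and 51996 in vehicle livers. The ranges overlapped, and this call (log2 change -1.81 ± 0.74, adjusted p = 0.04) was lost in 9 of the alternative fits.

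**Figure D3:**
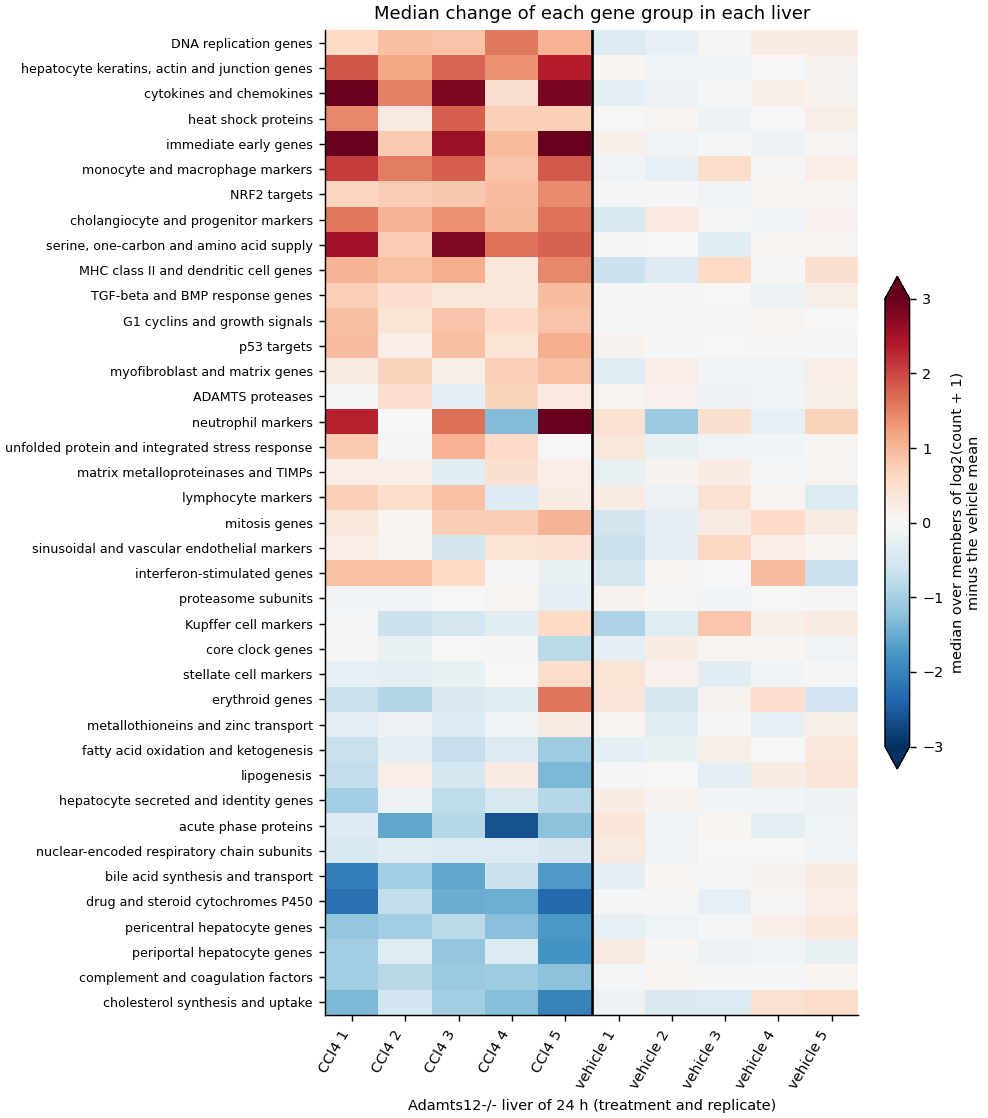
Median over the tested members of each gene group of log2(normalised count + 1) minus the vehicle mean, for each Adamts12-/- liver of 24 h (CCl4 livers left of the line, vehicle livers right), on a colour scale from -3 (blue) to 3 (red). Pericentral, P450, complement and structure genes moved in 1 direction in all 5 CCl4 livers, while immediate early, cytokine and neutrophil genes were lower in livers 2 and 4 than in the other 3.

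Genes of inflammation rose with those of macrophages. Of 18 cytokine and chemokine genes 14 rose and 1 fell (median 2.3), 15 and 1 without livers 2 and 4. Ccl2, which draws monocytes from the blood, measured 950.2, 238, 730.1, 118 and 394 in CCl4 livers, against 20.9, 33.4, 17.9, 25.3 and 41.5 in vehicle livers, with livers 4 and 2 lowest of the CCl4 livers and no overlap (log2 change 3.78 ± 0.57, adjusted p = 1.88e-07). Cxcl9, which draws T cells, measured 4697, 4398, 3615, 578 and 3645 in CCl4 livers, against 182, 162, 199, 428 and 181 in vehicle livers. CCl4 liver 4 was far below the other CCl4 livers and vehicle liver 4 above the other vehicle livers, and the groups still did not overlap (log2 change 3.67 ± 0.41, adjusted p = 1.48e-10). Tnf averaged 51.1 ± 29.5 in CCl4 livers and 4.77 ± 4.25 in vehicle livers, and Cxcl1, a chemokine for neutrophils, was the member that fell. Of 24 interferon-stimulated genes 5 rose (20.8%) and 4 fell (16.7%), at or below the shares over all genes of 21.2% and 23.2%, and 6 rose and 4 fell without livers 2 and 4. The rises numbered 4 to 10 when single livers were left out.

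Markers of monocytes and of macrophages that take up dead cells were high after CCl4. Of 21 such genes 14 rose and 1 fell (median 1.8), 16 and 1 without livers 2 and 4. Mmp12, macrophage elastase, measured 967, 513, 519, 436 and 1063 in CCl4 livers, against 0, 0, 6.41, 7.6 and 5.42 in vehicle livers, 2 of which held none. All 5 CCl4 livers were high, livers 2 and 4 included (log2 change 7.62 ± 0.83, adjusted p = 6.84e-11). Gpnmb, a lysosomal protein of lipid-laden macrophages, measured 1164, 185, 1460.2, 225 and 756 in CCl4 livers, against 1.1, 7.96, 8.97, 6.33 and 13.5 in vehicle livers (log2 change 6.27 ± 0.98, adjusted p = 4.42e-07). Cd68, a lysosomal protein of all macrophages, measured 3566, 1092, 4008, 1640.5 and 5392 in CCl4 livers, against 175, 296, 570.2, 527 and 470.4 in vehicle livers, with no overlap (log2 change 2.84 ± 0.37, adjusted p = 8.65e-09). The member that fell was Fn1, fibronectin, which hepatocytes also secrete. The summed count of the list, Fn1 included, was 104300 to 150700 in CCl4 livers and 148700 to 220700 in vehicle livers.

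Markers of resident macrophages fell or rose by gene. Clec4f, which in mice is specific to Kupffer cells, measured 1070.00, 1026, 656, 1789.8 and 2182.4 in CCl4 livers, against 1418, 2113, 5328, 3313 and 3480.5 in vehicle livers. The ranges overlapped, and the fall was called (log2 change -1.21 ± 0.31, adjusted p = 0.00109). Marco, a scavenger receptor that Kupffer cells share with other macrophages, measured 8629, 4435, 6100.1, 2152 and 11949.6 in CCl4 livers, against 714, 842, 2612.7, 1953 and 1801 in vehicle livers, with overlapping ranges, and it rose (log2 change 2.02 ± 0.57, adjusted p = 0.00277). Of 14 Kupffer cell markers 3 fell and 1 rose, which is below the 44.3% called over all genes (2 and 1 without livers 2 and 4), and Timd4, Cd5l and Cd163 were not called.

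Other immune markers moved in part. Of 13 genes for MHC class II molecules and dendritic cells 7 rose (median 0.944), 8 without livers 2 and 4. Cd74, the invariant chain of MHC class II, measured 2411, 2581, 3443, 1777 and 3290.00 in CCl4 livers, against 602, 745, 1886, 993 and 1631 in vehicle livers. The ranges overlapped by CCl4 liver 4 and vehicle liver 3 (log2 change 1.30 ± 0.36, adjusted p = 0.0026). The knockout vehicle livers of 24 h were low, at 1171 ± 561.1, against 4607 ± 1851 at 4 h and 3658 ± 1203 at 7 days. The dendritic cell markers Flt3, Xcr1, Clec9a and Zbtb46 were not called. Of 11 neutrophil markers 4 rose and 1 fell (45.5% called, against 44.3% of all genes), with 8 rises without livers 2 and 4. Their summed count was 452 to 6712 in CCl4 livers and 315 to 1141 in vehicle livers, and the list's median change was 2.33, -0.00459, 1.66, -1.3 and 3.06 in CCl4 livers 1 to 5. Of 20 lymphocyte markers 2 rose, Cd8b1 and Ptprc (10% called, against 44.3% of all genes), with Cd3e, Cd4 and Nkg7 not called. Without livers 2 and 4 the count was again 2, but Cd8b1 lost its call and Ccl5 gained one. The rises numbered 0 to 3 when single livers were left out.

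Endothelial and stellate cell markers changed little as groups. Of 22 endothelial markers 1 rose and none fell (4.55% called, against 44.3% of all genes), with the same numbers without livers 2 and 4. The gene that rose was Rspo3, a ligand that strengthens Wnt signals, and its call held in 12 of 18 alternative fits. Stab2, a scavenger receptor of the sinusoidal lining, measured 1391, 1399.9, 734, 1879 and 1465 in CCl4 livers, against 1125, 2183, 3244, 1546 and 1863 in vehicle livers, with a wide overlap (log2 change -0.51 ± 0.29, adjusted p = 0.155). Of 18 stellate cell markers 4 fell and 1 rose (27.8% called, against 44.3% of all genes), 5 and 1 without livers 2 and 4. Those that fell were Colec10 and Colec11, which encode secreted collectins, Vipr1, a receptor for vasoactive intestinal peptide, and Lhx2, a transcription factor. Colec10 measured 432, 607, 507, 738 and 582 in CCl4 livers, against 1729, 1388, 1062, 1094 and 1088 in vehicle livers, with no overlap (log2 change -1.14 ± 0.21, adjusted p = 7.57e-06). Vipr1 averaged 632 ± 289 in CCl4 livers and 1547 ± 294 in vehicle livers, likewise with no overlap (log2 change -1.41 ± 0.25, adjusted p = 5.03e-06). Pdgfrb, the member that rose, a receptor through which PDGF activates stellate cells, measured 425, 642, 409, 649 and 592 in CCl4 livers, against 275, 248, 178, 199 and 245 in vehicle livers, with no overlap (log2 change 1.23 ± 0.22, adjusted p = 4.26e-06).

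Matrix and contractile genes rose in part. Of 27 genes of myofibroblasts and matrix 10 rose and none fell (median 0.504), while 10 rose and 2 fell without livers 2 and 4. The share called was 37%, against 44.3% of all genes, and the share that rose was 37%, against 21.2%. Tagln, an actin-binding protein of contractile cells, measured 388, 679, 364, 635 and 672 in CCl4 livers, against 59.3, 33.4, 93.5, 30.4 and 22.6 in vehicle livers, with no overlap and with livers 2 and 4 among the highest (log2 change 3.62 ± 0.55, adjusted p = 2.58e-07). Thbs1, thrombospondin 1, which activates latent TGF-beta, measured 2000.1, 353, 1027, 325 and 1164 in CCl4 livers, against 30.8, 19.1, 64.1, 34.2 and 71.3 in vehicle livers, with livers 2 and 4 lowest of the CCl4 livers (log2 change 4.26 ± 0.70, adjusted p = 1.32e-06). Col4a1, a basement membrane collagen, averaged 4251 ± 970.4 in CCl4 livers and 1697 ± 356 in vehicle livers (log2 change 1.32 ± 0.22, adjusted p = 1.18e-06). Col1a1, Col1a2 and Col3a1, the main collagens of scars, were not called. Of 20 genes of TGF-beta and BMP responses 10 rose and none fell (median 0.381), 9 without livers 2 and 4, and Id1, a target of BMP signals, averaged 611 ± 327 in CCl4 livers and 95.1 ± 40.6 in vehicle livers (log2 change 2.63 ± 0.37, adjusted p = 4.28e-08).

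Related proteases were called about as often as all genes. Of the 12 ADAMTS genes tested, 5 rose and 1 fell (50% called, against 44.3% of all genes), 4 and 2 without livers 2 and 4, where the 5 include Adamts12 itself. Adamts1, a protease of aggrecan and versican, averaged 1395 ± 1149 in CCl4 livers and 317 ± 44.7 in vehicle livers (log2 change 1.77 ± 0.32, adjusted p = 6.19e-06). Adamts9 averaged 182 ± 41.9 in CCl4 livers and 55.8 ± 31.1 in vehicle livers (log2 change 1.81 ± 0.32, adjusted p = 6.33e-06), and Adamts6, the member that fell, averaged 55.8 ± 34.8 in CCl4 livers and 125 ± 22.6 in vehicle livers. Adamts7, the member most like Adamts12 in structure, was not called. Of 14 matrix metalloproteinases and their inhibitors 4 rose and 1, Mmp2, fell (35.7% called), 5 and 3 without livers 2 and 4. Mmp13, the main collagenase of rodents, measured 265, 144, 159.5, 97.1 and 114 in CCl4 livers, against 0, 1.59, 3.84, 2.53 and 0.903 in vehicle livers. Its vehicle values came from 7 reads in all, and the ratio of means was 87.9, with a counting interval of 42.7 to 219 from those reads.

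Genes of cell structure rose, and which cells of the bulk tissue made them was not tested. Of 24 keratin, actin, annexin and junction genes 20 rose and 2 fell (median 1.85), 19 and 3 without livers 2 and 4. Sprr1a, a cross-linked envelope protein that injured hepatocytes can make, measured 10210.3, 874, 14626, 895 and 7685 in CCl4 livers. It measured 4.4, 0, 0, 1.27 and 0.903 in vehicle livers, from 6 reads in all. The ratio of means was 5223, with a counting interval of 2399 to 14231, and livers 2 and 4 were far below the other 3. Anxa2, a membrane- and actin-binding annexin, measured 4704, 2906, 6844, 3170.00 and 6984 in CCl4 livers, against 322, 376, 405, 346 and 335 in vehicle livers, with no overlap (log2 change 3.69 ± 0.32, adjusted p = 6.15e-14). The 2 members that fell, Gjb1 and Gjb2, form the gap junctions between hepatocytes.

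Markers of the fetal and bile duct programme rose for some genes. Of 12 such genes 7 rose and none fell (median 1.56), 6 and 1 without livers 2 and 4. Afp, alpha-fetoprotein, measured 201, 105, 329, 81.1 and 329 in CCl4 livers, against 13.2, 9.55, 25.6, 25.3 and 19.9 in vehicle livers, with no overlap (log2 change 3.28 ± 0.36, adjusted p = 9.01e-11). Spp1, osteopontin, which bile duct cells and macrophages both make, averaged 1668 ± 282 in CCl4 livers and 493 ± 151 in vehicle livers, with no overlap (log2 change 1.80 ± 0.40, adjusted p = 0.000175). Epcam, Krt7 and Krt19, which define bile duct cells, were not called. Bmp8b, a secreted BMP, measured 289, 255, 497, 325 and 263 in CCl4 livers. It measured 3.3, 0, 5.13, 2.53 and 0 in vehicle livers, from 9 reads in all, so that the ratio of means was 149 (counting interval 78.3 to 325). Livers 2 and 4 were here among the other CCl4 livers.

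Genes for entry into the cell cycle and for DNA replication rose, whereas most mitosis genes were not called. Of 20 G1 genes 11 rose and 2, the receptors Met and Egfr, fell (median 0.726), the same numbers as without livers 2 and 4. Ccnd1, cyclin D1, which commits hepatocytes to division, measured 2701, 4822, 5416, 7026 and 1562 in CCl4 livers, against 509, 531, 486, 595 and 718 in vehicle livers, with liver 4 highest and liver 5 lowest of the CCl4 livers (log2 change 2.75 ± 0.35, adjusted p = 3.29e-09). That rise rests on a vehicle level of Ccnd1 that was lower at 24 h than at 4 h or 7 days, as given below. Of 22 DNA replication genes 18 rose and 1, Mcm10, fell (median 0.946), 13 and 1 without livers 2 and 4, and 12 and 0 in a fit of the 10 livers alone. Mcm2, a subunit of the replicative helicase, measured 279.7, 399, 351, 865 and 380.2 in CCl4 livers, against 76.9, 98.7, 123, 199 and 145 in vehicle livers. The groups did not overlap, and CCl4 liver 4 was highest (log2 change 1.77 ± 0.25, adjusted p = 6.11e-08). Cdt1, which loads that helicase onto DNA, measured 437, 219, 515, 419 and 707 in CCl4 livers, against 44.0, 90.7, 89.7, 122 and 99.3 in vehicle livers (log2 change 2.33 ± 0.29, adjusted p = 3.36e-09). Of 23 mitosis genes 2 rose, Aurka and Bub1b (8.7% called, against 44.3% of all genes, median 0.609). Without livers 2 and 4 the count was again 2, but Aurka lost its call and Prc1 gained one. The rises numbered 0 to 4 when single livers were left out. Cdk1, the kinase that starts mitosis, measured 46.0, 68.5, 60.7, 64.0 and 100.5 in CCl4 livers, against 28.6, 33.4, 42.3, 40.5 and 36.1 in vehicle livers. Those values did not overlap, but the change was not called (log2 change 0.86 ± 0.40, adjusted p = 0.0763), and Mki67 and Top2a were not called either.

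The starts of Cdt1 (chr8:122567765-122568064, plus strand) and Mcm3 (chr1:20820263-20820562, minus strand) are shown because both rose and both hold an E2F motif downstream of the start, E2F being the factor family released by cyclin D. The letters searched on both strands were TTTCCCGC, TTTGGCGC and TTTCGCGC. The matches, in capitals in these RefSeq sequences (GRCm38.p6), begin at +33 in Cdt1 and at +20 and +39 in Mcm3.
Cdt1: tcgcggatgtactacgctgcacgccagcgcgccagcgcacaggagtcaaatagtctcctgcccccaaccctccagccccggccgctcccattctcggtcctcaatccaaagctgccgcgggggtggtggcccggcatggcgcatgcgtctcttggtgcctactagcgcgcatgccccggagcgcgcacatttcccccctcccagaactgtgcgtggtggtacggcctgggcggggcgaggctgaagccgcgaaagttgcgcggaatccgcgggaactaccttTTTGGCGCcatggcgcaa
Mcm3: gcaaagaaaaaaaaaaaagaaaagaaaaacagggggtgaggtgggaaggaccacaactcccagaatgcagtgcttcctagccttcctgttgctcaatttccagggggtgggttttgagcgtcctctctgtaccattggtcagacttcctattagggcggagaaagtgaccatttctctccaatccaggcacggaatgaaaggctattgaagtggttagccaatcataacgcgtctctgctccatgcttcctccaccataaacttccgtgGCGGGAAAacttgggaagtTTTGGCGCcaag
Of the 23 windows of replication genes 8 held a match (34.8%), among all windows 3.16%. Mcm3 averaged 404 ± 124 in CCl4 livers and 128 ± 42.7 in vehicle livers (log2 change 1.67 ± 0.24, adjusted p = 4.94e-08).

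Clock genes were called at a share near that of all genes (45%, against 44.3%) and proteasome subunits at a lower one (14.8%). Of 20 clock genes 6 fell and 3 rose, 4 and 5 without livers 2 and 4, among them Nr1d1, a repressor of the clock, which averaged 426 ± 235 in CCl4 livers and 1749 ± 328 in vehicle livers (log2 change -2.18 ± 0.41, adjusted p = 1.43e-05). Of 27 proteasome subunits 2 rose and 2 fell, 2 and 1 without livers 2 and 4, and quantile normalisation called 9 higher. Of 6 erythroid genes 2 fell, and 1 without livers 2 and 4. Klf1, an erythroid transcription factor, averaged 16.3 ± 14.7 in CCl4 livers and 142 ± 36.3 in vehicle livers (log2 change -3.32 ± 0.36, adjusted p = 5.74e-11), while the globin genes Hba-a1, Hba-a2 and Hbb-bs were not called and changed sign between settings. Cenpm, a centromere protein, fell against the other mitosis genes and averaged 17.6 ± 6.07 in CCl4 livers and 281 ± 36.3 in vehicle livers (log2 change -3.97 ± 0.34, adjusted p = 3.43e-14), with no overlap.

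Most genes called in knockout livers were also called, in the same direction, in wild-type livers of 24 h. CCl4 changed 7493 genes in them (51.5%), 3834 higher (26.3%) and 3659 lower (25.1%). Genes higher in both genotypes numbered 2556, which is 83% of those higher in knockout and 66.7% of those higher in wild-type livers. Genes lower in both numbered 2827, or 83.8% of those lower in knockout and 77.3% of those lower in wild-type livers, and no gene was called in opposite directions. The log2 changes of knockout and wild-type livers correlated at r = 0.905 over 14557 genes, a description across genes, which are not independent. The test of the difference between the genotypes' responses called 0 genes with limma (0%), where 711 had an unadjusted p under 0.05 and the smallest adjusted p was 0.926. With 5 livers a group and a median residual SD of 0.332, that does not show equal responses.

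**Figure D4:**
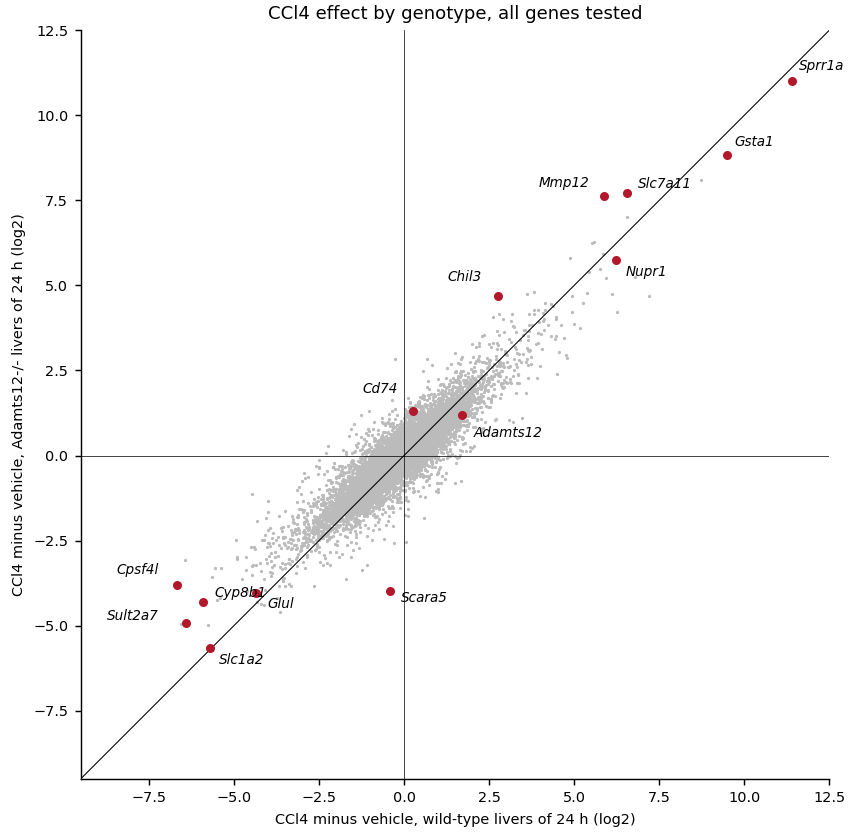
Log2 change after CCl4 (CCl4 minus vehicle) of each gene tested in Adamts12-/- livers of 24 h (vertical) and wild-type livers of 24 h (horizontal), with the line of equal change. Genes spread along the line, and the labelled genes include Cpsf4l, Cd74, Chil3 and Scara5, which lie off it without passing the test of the difference.

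The genes with the smallest p for a difference in response were Cpsf4l, Gm46411 and Knop1, each with an adjusted p of 0.926. Cpsf4l, a gene like a subunit of the mRNA cleavage complex, averaged 13.9 ± 14.4 in knockout CCl4 livers and 0.834 ± 1.13 in wild-type CCl4 livers. Its log2 change after CCl4 was -3.79 ± 0.50 in knockout and -6.66 ± 0.50 in wild-type livers, a difference of 2.87 ± 0.71. Its 5 knockout CCl4 values were 4.79, 31.2, 4.77, 27.7 and 0.804, so livers 2 and 4 held most of it. Among MHC class II and dendritic cell genes, 7 rose in knockout and none in wild-type livers. The difference in Cd74 was 1.03 ± 0.51 (unadjusted p = 0.05, adjusted p = 0.926), and 2 of the 13 genes had an unadjusted p under 0.05. Acute phase genes fell in 18 of 24 cases in knockout and 6 in wild-type livers, interferon genes rose in 5 of 24 and 18, DNA replication genes in 18 of 22 and 11, and mitosis genes in 2 of 23 and 9. Over all genes 21.2% rose and 23.2% fell in knockout livers, and 26.3% rose and 25.1% fell in wild-type livers. Without knockout CCl4 livers 2 and 4 the knockout counts were 9, 6, 13 and 2 in that order. Quantile normalisation gave 6 acute phase falls in knockout livers. None of the genes in these groups passed the test of the difference.

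Scara5, a ferritin receptor, fell in knockout livers. It measured 25.9, 0, 20.5, 3.2 and 12.9 in knockout CCl4 livers, against 124, 97.1, 118, 110.2 and 213 in knockout vehicle livers, with no overlap (log2 change -3.996 ± 0.96, adjusted p = 0.000556). The vehicle level of Scara5 in knockout livers differed between the times, at 132 ± 46.2 at 24 h, 79.4 ± 106 at 4 h and 6.90 ± 7.34 at 7 days. Wild-type livers of 24 h averaged 71.1 ± 97.2 after CCl4 and 51.9 ± 36.4 after vehicle. The difference in response was -3.59 ± 1.36 (unadjusted p = 0.011, adjusted p = 0.926) and was not called.

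Between genotypes after CCl4, 3 genes differed (0.0206%), with 979 at an unadjusted p under 0.05. They were Adamts12 itself, Cpsf4l (log2 difference 2.46 ± 0.50, adjusted p = 0.0362) and Gm28438, a predicted gene. Gm28438 averaged 82.9 ± 35.1 in knockout and 3.74 ± 3.26 in wild-type CCl4 livers (log2 difference 4.36 ± 0.86, adjusted p = 0.0269), against 56.5 ± 44.5 in knockout and 6.69 ± 4.37 in wild-type vehicle livers (adjusted p = 0.289). Leaving out knockout CCl4 liver 5, the liver farthest from the vehicle group, raised the count to 337, and without livers 2 and 4 it was 0. After vehicle 0 genes differed with limma (0%), with 1249 at an unadjusted p under 0.05 and a smallest adjusted p of 0.0512. The smallest p were those of Cage1 (log2 difference 2.19 ± 0.43), Gm49980 (2.63 ± 0.53) and Med26 (0.59 ± 0.13), all higher in knockout livers. In the wild-type vehicle group 4 of 5 mice carried numbers below 7000 in the labels, which no mouse of the other 3 groups of 24 h did. Without those 4, 124 genes differed between genotypes after vehicle and 65 in response to CCl4, with 1 wild-type vehicle mouse left, which the fit assumes to vary like the other groups. The difference that these mice make and the genotype cannot be told apart.

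The response at 24 h differed from that at 4 h in the same genotype. At 4 h 5699 genes were called (39.1%), 3078 higher (21.1%) and 2621 lower (18%). Genes higher at both times numbered 1261, which is 41% of each list, and genes lower at both numbered 1475, or 43.7% of those at 24 h and 56.3% of those at 4 h. In the test of the difference in CCl4 effect, 24 h minus 4 h, 3758 genes were called (25.8%), 1389 with the higher change at 24 h (9.54%) and 2369 with the lower (16.3%). Quantile normalisation made that split 1777 and 1659, and 4562 genes were called without livers 2 and 4. At 7 days 99 genes were called (0.68%).

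Several acute stress genes had the larger change at 4 h. Fgf21, a hormone that hepatocytes release under stress, averaged 10181 ± 1825 in CCl4 livers and 94.9 ± 75.8 in vehicle livers at 4 h, and 95.2 ± 67.1 and 74.4 ± 46.2 at 24 h (difference in log2 change -7.10 ± 0.98, adjusted p = 1.41e-07). Hspa1b, an inducible HSP70 with a near copy, Hspa1a, averaged 31349 ± 7346 in CCl4 livers and 249.5 ± 134 in vehicle livers at 4 h, and 672 ± 413 and 297 ± 95.7 at 24 h (difference -6.13 ± 0.61, adjusted p = 1.04e-11). Of the heat shock genes 11 of 15 had the lower change at 24 h, and so had 14 of 24 genes of the unfolded protein and integrated stress responses. Nupr1 did the reverse, with 325 ± 138 in CCl4 livers at 4 h and 7136 ± 8829 at 24 h (difference 3.11 ± 0.83, adjusted p = 0.00338). Proteasome subunits, 2 of 27 of which rose at 24 h, rose in 19 cases at 4 h.

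Some macrophage and cytokine genes and most sterol genes differed between the times. At 4 h 1 of 21 monocyte and macrophage genes rose, against 14 at 24 h, and 3 of 18 cytokine genes, against 14. In the test of the difference 10 of the 21 and 9 of the 18 had the higher change at 24 h and none the lower. Mmp12 averaged 26.0 ± 21.1 in CCl4 livers and 17.2 ± 6.88 in vehicle livers at 4 h (difference in log2 change, 24 h minus 4 h, 7.35 ± 1.18, adjusted p = 2.86e-06). Cholesterol genes rose in 4 and fell in 1 of 22 cases at 4 h, and 19 had the lower change at 24 h. Ccnd1 fell at 4 h, when it averaged 1543 ± 393 in CCl4 livers and 5483 ± 2418 in vehicle livers (difference 4.49 ± 0.49, adjusted p = 2.52e-10). Of the 20 G1 genes 6 had the higher and 3 the lower change at 24 h. The vehicle level of Ccnd1 differed between the times, at 5483 ± 2418 at 4 h, 568 ± 93.3 at 24 h and 3317 ± 641 at 7 days. Glul averaged 20594 ± 7239.5 in CCl4 livers and 30892 ± 14853 in vehicle livers at 7 days and was no longer called (adjusted p = 0.435).

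**Figure D5:**
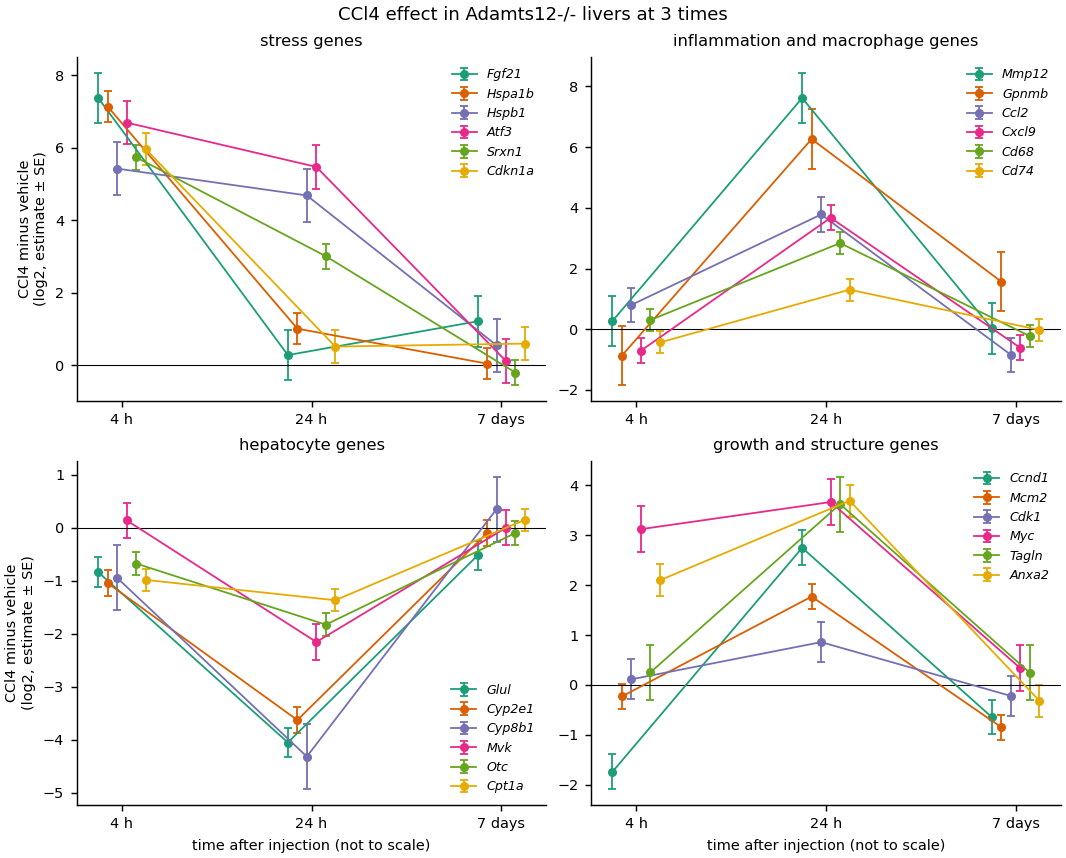
Log2 change after CCl4 (CCl4 minus vehicle, estimate ± SE, n = 5 livers a group) in Adamts12-/- livers at 4 h, 24 h and 7 days for 24 genes in 4 panels. The 6 stress genes drawn were highest at 4 h, the macrophage and cytokine genes drawn at 24 h, the hepatocyte genes drawn were lowest at 24 h, and nearly all estimates lay within 1 unit of 0 at 7 days, with Gpnmb and Fgf21 above.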

How the data were processed

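Messenger RNA of 80 mouse livers was sequenced from stranded libraries made from 500 ng of total RNA and run in random order, per the labels' protocols. The deposited values are read counts that the authors divided by a size factor per library, a depth-scaled signal and not raw counts. The submitters' processing notes name STAR, HTSeq, DESeq2 and the build GRCm38, without versions or roles. Every value of a library was a whole multiple of 1 step within 0.01, which gave the reads per library (18648557 to 64487370).

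The table held 14560 genes, and 14557 with at least 10 normalised counts in 5 livers were tested. Values entered limma 3.58.1 (R 4.3.3) as log2(value + 1), with an intensity trend, in 1 fit of 14 groups and 70 livers. The knockout livers of 12 h were left out because earlier work on these data described libraries among them that stood with the other treatment. Contrasts were CCl4 minus vehicle in knockout livers of 24 h, the same in wild-type livers and at 4 h and 7 days, their differences, and knockout minus wild type within each treatment. P-values were adjusted within a contrast by Benjamini and Hochberg, with a call at 0.05. Single-gene checks of Adamts12 used exact two-sided permutation of the 10 livers. Labels share replicate numbers across treatments, but same-numbered livers did not deviate together (correlations -0.164 to 0.040), so no block was used.

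The gene groups and the comparison were chosen with earlier results of these data known. Named genes are Adamts12, the 12 largest rises and falls among called genes that had a mean of 100 in a group and no overlap, the 8 largest changes of the mean, up to 5 members per group with the smallest adjusted p, defining markers, and for other contrasts all or the leading called genes. Some named genes are not reported here. Genes mentioned without values, and the choice of which named genes to print by liver, came after values were seen. Promoter windows run from 250 bases before to 50 bases after a RefSeq start. Gene positions are from GENCODE M21. Counting intervals are exact Poisson intervals of the vehicle reads and cover counting error only. Python 3.11.15 with pandas 2.3.3, numpy 2.4.6, scipy 1.17.1 and matplotlib 3.10.9 made tables and plots. Alternatives were another pseudocount, other filters, quantile normalisation, all 80 livers, the compared groups only, a replicate block, omission of the wild-type mice of 24 h numbered below 7000, and omission of single livers, with the omission of CCl4 livers 2 and 4 added after the values were seen.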

Additional observations from a re-analysis of the deposited data

Results flagged for a closer look

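In 46 genes printed by liver, the 5 CCl4 and the 5 vehicle livers of the knockout were searched for a liver far from the rest (Dixon's ratio above 0.71). Of 92 groups of 5, 2 were marked, and chance alone marks about 1 in 20. Both concern Cxcl9, a chemokine for T cells. Its lowest knockout CCl4 liver, replicate 4, had 578.1 normalised counts, far below the other 4. Its highest knockout vehicle liver, replicate 4, had 428.2, far above the other 4. The causes were not tested.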

How the results depend on the processing

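The count of 6452 genes for CCl4 against vehicle in knockout livers stayed within 1.5 times of its value under other settings (5415 to 6883 with single livers left out, 5641 with the stricter filter, 5978 with all 80 livers, 6400 under quantile normalisation) except for the compared groups alone, 4266. A model of counts on the recovered reads was not run. The replicate block gave 6433 calls there, and for the other comparisons 0 in the difference of responses, 3 between genotypes after CCl4 and 2 after vehicle. For the difference between the genotypes' responses, 65 genes were called without the wild-type mice numbered below 7000, and 0 to 2 with single livers left out. Between genotypes after CCl4, the 3 calls became 1 with a pseudocount of 8, 0 under quantile normalisation, 0 with the compared groups alone, 0 without CCl4 livers 2 and 4, and 0 to 337 with single livers left out, where 337 came without knockout CCl4 replicate 5, 31 without wild-type CCl4 replicate 4 and 19 without knockout CCl4 replicate 1. After vehicle they were 1 with a pseudocount of 8, 2 under quantile normalisation, 124 without the mice numbered below 7000 (5 higher and 119 lower, a fit with 1 wild-type vehicle mouse, assumed to vary like the other groups) and 0 to 3 with single livers left out. The count for 24 h against 4 h was 3378 to 3965 with single livers left out. The log2 change of Adamts12 was 0.884 to 1.46 with single livers left out. Among named genes those that changed sign had not been called. Psma1 was 0.00509 under quantile normalisation, and Hbb-bs 0.125 there. With single livers left out Hbb-bs ranged from -0.502 to 0.0863, Hba-a1 from -0.607 to 0.0641 and Hba-a2 from -0.528 to 0.148. Without livers 2 and 4 they were at 0.176, 0.166 and 0.328. Among results for single genes under other settings, 4045 kept their direction and call, 151 lost the call and 31 gained it. Among counts of gene groups 1285 stayed within 1.5 times and 119 did not. Unless named above, the cause was not tested. Depth limits genes with few vehicle reads, such as Sprr1a, Gsta1, Bmp8b and Mmp13, whose fold has a wide counting interval.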

Other observations

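The largest rises beyond the groups described included Nrg1, neuregulin 1, a ligand of EGF-family receptors, which averaged 534 ± 436 in CCl4 livers and 4.88 ± 3.26 in vehicle livers (log2 change 6.24 ± 0.55, adjusted p = 6.64e-14), and Foxred2, which averaged 548 ± 671 in CCl4 livers and 4.02 ± 2.39 in vehicle livers. Iron-storage genes also rose. Fth1, the ferritin heavy chain, averaged 128151 ± 56956 in CCl4 livers and 54954 ± 9044 in vehicle livers (log2 change 1.12 ± 0.20, adjusted p = 7.11e-06), and Ftl1, the light chain, averaged 71403 ± 19374 in CCl4 livers and 43574 ± 2183 in vehicle livers (log2 change 0.67 ± 0.19, adjusted p = 0.00266). Among falls, Upp2, a liver uridine phosphorylase, averaged 213 ± 239 in CCl4 livers and 2178 ± 858 in vehicle livers (log2 change -4.18 ± 0.60, adjusted p = 8.49e-08), and the sulfotransferase Sult3a1 averaged 75.0 ± 57.6 in CCl4 livers and 1386 ± 689 in vehicle livers (log2 change -4.99 ± 1.06, adjusted p = 0.000108). The vehicle level of Upp2 in knockout livers was higher at the other times, 24053 ± 6575 at 4 h and 10495 ± 2045.5 at 7 days. Members of the Sult and Mup families are near copies whose reads can be shared, so values of single members are uncertain. F13a1, a subunit of coagulation factor XIII that macrophages make, averaged 136 ± 46.6 in CCl4 livers and 7.59 ± 6.02 in vehicle livers (log2 change 4.15 ± 0.67, adjusted p = 9.2e-07), and Chil3, a chitinase-like protein of activated macrophages, averaged 373 ± 186 in CCl4 livers and 14.9 ± 10.8 in vehicle livers (log2 change 4.70 ± 0.83, adjusted p = 4.85e-06).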
